A study of Drosophila melanogaster with 36 samples.

Results

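The thin filament of the muscle sarcomere was described here through 10 genes of Drosophila melanogaster, selected by their FlyBase symbols among the 17494 genes counted in heads and muscles and the 17612 counted in whole flies. They are the muscle actin genes Act88F, Act79B, Act87E and Act57B, the tropomyosin genes Tm1 and Tm2, the troponin T gene up, the troponin I gene wupA, and the troponin C genes TpnC4 and TpnC41C. The series holds 36 poly-A RNA libraries. WT flies gave muscles and heads at ages of 3, 15, 30 and 45 d (3 libraries per combination). Another 12 libraries are of whole 3 d flies, 4 from each of 3 genotypes, namely a transgene group (gcn5c450, tub-GAL4/c450, UAS-HA-Gcn5, labelled as Gcn5 overexpression), a gcn5 mutant (gcn5c450/c450, labelled as loss of function) and WT. The transgene group carries both mutant gcn5 alleles of the mutant group and expresses Gcn5, a lysine acetyltransferase, under a driver that is active in nearly all cells, so it differs from WT in the mutation, the driver and the transgene together. The labels give neither the sex of the flies nor the muscles that were dissected. They also do not say whether replicates came from separate animals, so p-values measure only the spread between libraries, which may be technical.

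In the thin filament, actin polymerises into a strand along which tropomyosin lies, and the troponin complex sits on tropomyosin. Troponin T ties the complex to tropomyosin, troponin I holds back contraction, and troponin C binds calcium and relieves that block. The fly builds different muscles from different isoforms. Act88F is the actin of the indirect flight muscle, and TpnC4 is the troponin C through which that muscle responds to stretch. Act79B is the actin of leg and jump muscle, Act87E and Act57B serve body-wall and other tubular muscle, and TpnC41C is the calcium-triggered troponin C of jump muscle that flight muscle also makes. Tm1, Tm2, up and wupA each give several isoforms by alternative splicing, and a count per gene adds these together.

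The whole-fly files place these genes on release r6.36 of the FlyBase annotation, and each whole-fly count covers the exons of a gene. For heads and muscles the annotation was not given in the sources used here. Act88F (FBgn0000047) lies at chr3R:15439969-15442177, Act87E (FBgn0000046) at chr3R:13425983-13428375 and Act79B (FBgn0000045) at chr3L:21985210-21987190. Act57B (FBgn0000044) lies at chr2R:20944021-20946431. Tm1 (FBgn0003721, chr3R:15278220-15308779) and Tm2 (FBgn0004117, chr3R:15310193-15315197) are direct neighbours on the plus strand with 1413 bases between them, and Act88F begins 124771 bases beyond Tm2. On the X chromosome up (FBgn0004169) lies at chrX:13593474-13602578 and wupA (FBgn0283471) at chrX:18105568-18116922. TpnC4 (FBgn0033027, chr2R:5503437-5507866) and TpnC41C (FBgn0013348, chr2R:5065237-5070210) lie 433226 bases apart on the minus strand. Few exon bases overlap another gene: 2.86% of the exon bases of Tm1, 3.02% of those of Act87E and 5.57% of those of Act57B. The actin genes resemble each other closely, so reads that match several of them may have been lost in the authors' counting.

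Counts in genes came to 3.0 to 3.68 M (M, 1e6 counts) per muscle library, 3.18 to 4.36 M per head library and 1.62 to 2.82 M per whole-fly library. The tissue labels were set against marker genes. The summed level of 9 muscle genes (Mhc, Mlc1, Mlc2, Prm, bt, sls, Zasp52, Mf and fln) was 10400 to 65500 CPM in muscle libraries and 2090 to 6060 CPM in head libraries, CPM being counts per 1e6 with TMM-scaled library sizes. Photoreceptor genes summed to 78.4 to 430 CPM in muscles and 30300 to 70700 CPM in heads, and 8 digestive enzyme genes summed to 7790 to 19800 CPM in muscles and 28.9 to 95.2 CPM in heads. Transcripts of digestive enzymes were thus present in the muscle libraries at every age, and their part in the muscle results was not tested. Replicate 3 of muscle at 3 d stood apart from its group. Its Spearman correlation across genes with replicates 1 and 2 was 0.843 and 0.841, against 0.982 between those replicates, and it had the highest digestive enzyme level (19800 CPM, against 9800 and 8180 CPM in replicates 1 and 2) and the lowest muscle level (33000 CPM, against 54400 and 65500 CPM). The muscle changes of the thin filament genes at 45 d against 3 d are therefore given with and without it. For other muscle values it is left out only where stated. Reads not uniquely aligned made 36.6% of replicate 3 at 45 d in muscle, against 7.6% and 8.59% in replicates 1 and 2 of that age. In whole flies, Gcn5 averaged 2968 ± 166 CPM in the transgene group, 36.8 ± 0.559 CPM in the mutant and 35.9 ± 7.10 CPM in WT (SD, n = 4 each), so the transgene is seen, while a lower transcript level was not detected in the mutant (log2 change 0.03 against WT, adjusted p = 0.917).

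In muscle, 9 of the 10 thin filament genes fell between 3 and 45 d, and Act57B was the exception. The same 9 genes had fallen by 15 d, and without replicate 3 of 3 d Act57B was called lower at 15 d too. The flight-muscle troponin C TpnC4 fell most in its fitted log2 change and went on falling after 15 d. The other 8 changed less after 15 d, TpnC41C the most of them, with a ratio of mean CPM of 0.718 at 45 d over 15 d. A change was called at an adjusted p below 0.05 in edgeR's quasi-likelihood test across all genes, with Benjamini-Hochberg adjustment. All genes set the background: at 15 d against 3 d, 6.05% of the 8866 genes tested in muscle were called lower and 2.03% higher, and of the 10 members 9 fell and 0 rose. At 30 d against 3 d the shares were 9.00% lower and 5.24% higher, with 9 members lower and 0 higher, and at 45 d against 3 d they were 11.1% lower and 8.21% higher, again with 9 members lower and 0 higher. These counts of members at 45 d were the same without replicate 3 of 45 d. At an unadjusted p under 0.05, 1 member was higher at 45 d against 3 d (Act57B) and 0 at 15 or 30 d, and DESeq2's Wald test called 0 higher in these comparisons. The median log2 change of the members at 45 d against 3 d was -2.40, beside a median of 0.006 over all genes tested. Bulk RNA cannot tell fewer muscle cells of a kind from less RNA per cell.

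**Figure D1:**
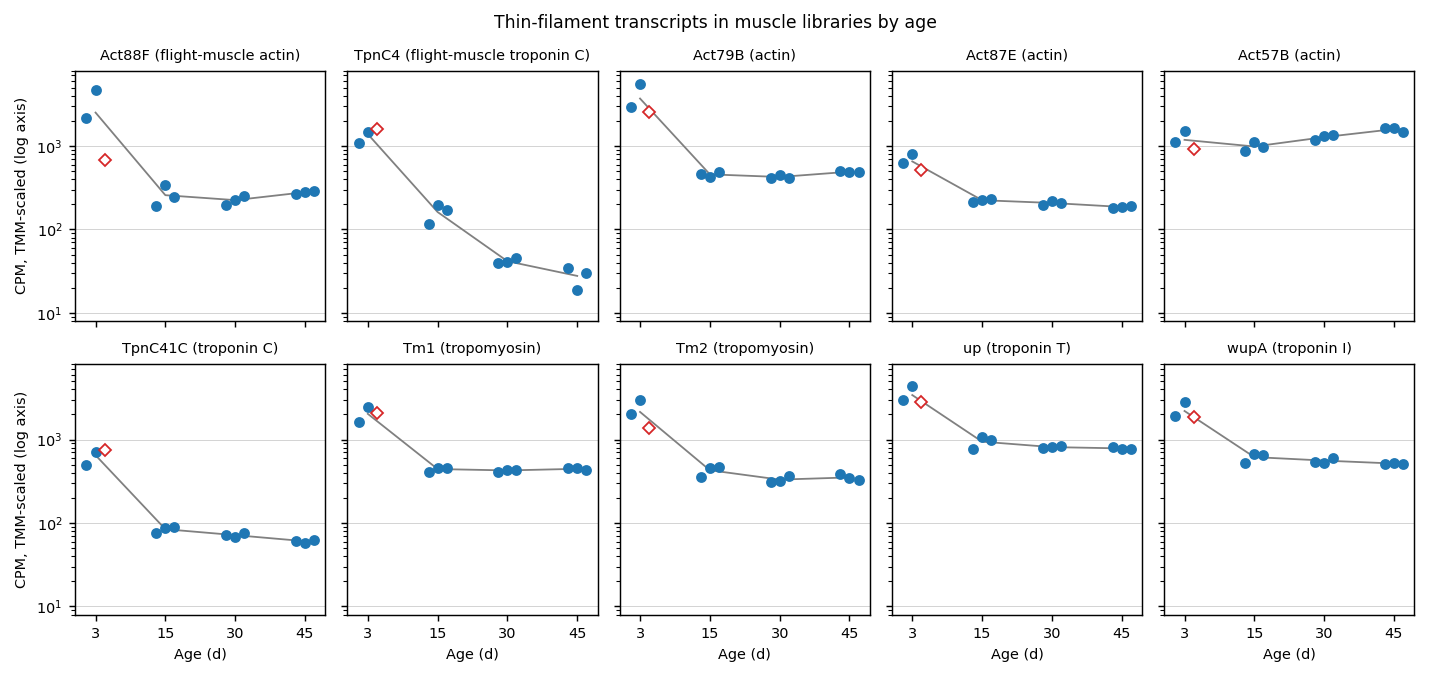
Level of each thin filament gene in the 12 muscle libraries by age, in CPM with TMM scaling on a log axis. Points are libraries in the order of their replicate numbers, the red open diamond is replicate 3 of 3 d, and the line joins the group means. TpnC4 keeps declining to 45 d, Act57B ends above its 15 d level, and the other 8 genes drop by 15 d and change less after it.

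Among the flight-muscle isoforms, Act88F had 2141, 4715 and 688.9 CPM in replicates 1, 2 and 3 at 3 d. It had 192.2, 336.4 and 243.8 CPM at 15 d, 194.0, 227.3 and 252.5 CPM at 30 d, and 269.7, 280.6 and 288.7 CPM at 45 d. The 3 d libraries differed by several fold among themselves, yet the lowest of them stood above every later library. Act88F averaged 279.6 ± 9.53 CPM at 45 d and 2515 ± 2040 CPM at 3 d (SD, n = 3 each), a log2 change of -3.17 ± 0.513 (SE, adjusted p = 0.000905). Leaving out replicate 3 of 3 d gave -3.62 ± 0.249, whereas leaving out replicate 2 gave -2.34, so its size depended on which young libraries were kept while the call held. At 15 d against 3 d it was -3.29 ± 0.516 (adjusted p = 0.00138), and a fit of only those ages gave an adjusted p of 0.0507.

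TpnC4 had 1099, 1480 and 1587 CPM at 3 d, 116.6, 195.3 and 173.4 CPM at 15 d, 39.1, 40.7 and 45.1 CPM at 30 d, and 34.4, 18.9 and 30.1 CPM at 45 d. Neighbouring ages did not overlap, and replicate 3 of 3 d was the highest library here, not the lowest as for Act88F. TpnC4 averaged 27.8 ± 7.99 CPM at 45 d and 1388 ± 256 CPM at 3 d (SD, n = 3 each), a ratio of means of 0.020, with a log2 change of -5.64 ± 0.296 (SE, adjusted p = 1.5e-07). Without replicate 3 of 3 d the change was -5.53 ± 0.214. TpnC4 was also the only member that fell from 15 to 45 d, with a log2 change of -2.54 ± 0.261 (adjusted p = 0.000887), and its levels at those ages did not overlap.

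Both flight-muscle isoforms thus fell, but with different courses. Act88F reached its later level by 15 d and changed by 0.12 ± 0.475 on the log2 scale between 15 and 45 d (adjusted p = 0.982), with overlapping groups. With an error of that size a moderate later change of Act88F would not have been detectable. Without replicate 3 of 3 d, which enters only through the shared estimate of spread, the change was 0.12 with a smaller error of 0.224 (adjusted p = 0.771).

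Among the actins of other muscles, Act79B had 2950, 5585 and 2578 CPM at 3 d, 462.5, 428.1 and 482.4 CPM at 15 d, 412.9, 444.8 and 418.5 CPM at 30 d, and 505.5, 483.2 and 486.9 CPM at 45 d. All libraries of 15 d and later lay at or below 505.5 CPM, so the ages separated as they did for Act88F although Act79B is not a flight-muscle actin. Its log2 change at 45 d against 3 d was -2.91 ± 0.254 (SE, adjusted p = 7.4e-06), and -3.12 ± 0.169 without replicate 3 of 3 d. Act87E had 182.2, 186.8 and 189.3 CPM at 45 d, against 634.3, 805.9 and 520.1 CPM at 3 d. It fell less, by a log2 change of -1.81 ± 0.169 (adjusted p = 1.22e-05), with no overlap between the ages. Without replicate 3 of 3 d the change of Act87E was -1.95 ± 0.0932.

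Act57B took the other course. It had 1126, 1502 and 927.8 CPM at 3 d, 859.5, 1113 and 986.4 CPM at 15 d, 1176, 1305 and 1351 CPM at 30 d, and 1647, 1664 and 1469 CPM at 45 d. The 45 d libraries overlapped the 3 d libraries only through replicate 2 of 3 d, and they lay above all 15 d libraries. Its log2 change was 0.43 ± 0.183 at 45 d against 3 d (adjusted p = 0.13) and 0.69 ± 0.184 at 45 d against 15 d (adjusted p = 0.0925), neither past the threshold. Single young libraries decided these calls. Without replicate 2 of 3 d the change at 45 d against 3 d was 0.64 (adjusted p = 0.0243). Without replicate 3 of 3 d it was 0.28 (adjusted p = 0.0725), the change at 45 d against 15 d was 0.69 (adjusted p = 0.000244), and that at 15 d against 3 d was -0.41 (adjusted p = 0.0159).

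TpnC41C, the other troponin C of the pair, had 493.0, 703.5 and 751.1 CPM at 3 d, 76.8, 86.6 and 89.5 CPM at 15 d, 71.1, 67.9 and 75.5 CPM at 30 d, and 61.5, 58.3 and 61.8 CPM at 45 d. It averaged 60.5 ± 1.97 CPM at 45 d and 649.2 ± 137 CPM at 3 d (SD, n = 3 each), a log2 change of -3.42 ± 0.186 (SE, adjusted p = 1.75e-07). Without replicate 3 of 3 d the change was -3.305 ± 0.122. The young libraries stood far above all others, and most of the drop lay before 15 d. From 15 to 45 d its log2 change was -0.48 ± 0.172 (adjusted p = 0.26), which passed the threshold without replicate 3 of 3 d (-0.48 ± 0.12, adjusted p = 0.0101).

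The tropomyosins and the troponin T and I genes, which flight and other muscles share, fell together and by less than TpnC4. Tm1 had 454.2, 450.1 and 433.7 CPM at 45 d, against 1614, 2423 and 2059 CPM at 3 d. Its neighbour Tm2 had 386.9, 342.1 and 326.0 CPM at 45 d, against 2044, 3000 and 1381 CPM at 3 d. For neither gene did the ages overlap, and the log2 changes at 45 d against 3 d were -2.19 ± 0.165 for Tm1 and -2.61 ± 0.253 for Tm2. The troponin T gene up had 803.5, 772.3 and 773.3 CPM at 45 d, against 3002, 4417 and 2810 CPM at 3 d, a change of -2.12 ± 0.193. The troponin I gene wupA had 511.7, 524.2 and 511.1 CPM at 45 d, against 1898, 2820 and 1875 CPM at 3 d, a change of -2.09 ± 0.186. Their adjusted p-values were between 2.08e-06 and 1.6e-05, and without replicate 3 of 3 d the changes were -2.18, -2.84, -2.24 and -2.19 for Tm1, Tm2, up and wupA. At 15 d against 3 d the changes were -2.20 for Tm1, -2.32 for Tm2, -1.85 for up and -1.84 for wupA, so most of each fall lay in the interval that ended at 15 d.

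At 45 d against 15 d in muscle, 0.767% of the genes tested were called lower and 0.925% higher. Of the members 1 fell, TpnC4, and 0 rose. Without replicate 3 of 3 d, which enters this comparison only through the shared estimate of spread, 3 members fell (TpnC4, TpnC41C and Act87E) and Act57B rose, and the same calls came from a fit of those ages only. The count thus depended on the library that stood apart. With all libraries, 1 member was higher at an unadjusted p under 0.05 (Act57B), and DESeq2's Wald test called it. Changes in other muscle markers ran beside the members' changes. Of 9 tested muscle genes 8 fell at 45 d against 3 d with a median log2 change of -2.12, and their summed level was 10400 to 11000 CPM at 45 d and 33000 to 65500 CPM at 3 d. Of 5 flight-muscle genes 4 fell, and their sum was 1260 to 1340 CPM at 45 d and 3410 to 12300 CPM at 3 d. These 5 include the members Act88F and TpnC4, and fln of the muscle genes, so they are not separate from either. Fat body genes summed to 8070 to 9590 CPM at 45 d and 2430 to 6420 CPM at 3 d, and digestive enzyme genes to 8460 to 8960 CPM at 45 d and 8180 to 19800 CPM at 3 d. Replicate 3 of 3 d gave the 2430 and the 19800 CPM. Replicates 1 and 2 of 3 d had 6420 and 5900 CPM for fat body genes and 9800 and 8180 CPM for digestive enzyme genes. Their part in the results was not tested.

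Scaling mattered in muscle. With library totals in place of TMM factors, the median change of all genes at 45 d against 3 d was 0.888, and 351 genes were called lower and 5827 higher, against 980 lower and 728 higher with TMM. The 9 members still fell under that scaling, with log2 changes between -4.74 for TpnC4 and -0.94 for Act87E. Act57B then rose, by 1.30 (adjusted p = 0.000255), which is more than the shift of all genes. The same scaling moved the median by 0.736 at 15 d, 0.811 at 30 d and, for 45 d against 15 d, by 0.151.

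**Figure D2:**
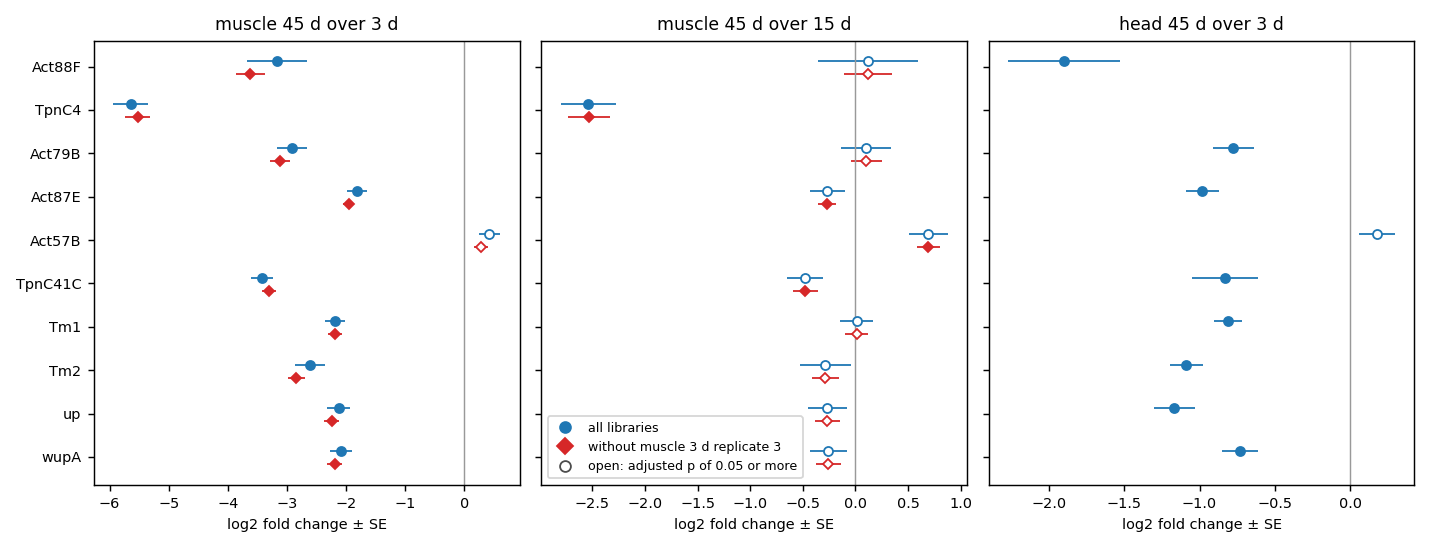
Log2 fold change with its SE for each thin filament gene at 45 d against 3 d in muscle, at 45 d against 15 d in muscle and at 45 d against 3 d in heads. Blue circles are from all libraries, red diamonds leave out replicate 3 of muscle at 3 d, and open symbols have an adjusted p of 0.05 or more. TpnC4 lies farthest to the left in both muscle panels, and it has no point in heads because it was not tested there.

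The makeup of the muscle actin transcripts changed with age. Of the counts of the 4 muscle actin genes in a muscle library, Act88F took 27.8 ± 11.8% at 3 d, 13.2 ± 2.52% at 15 d, 10.5 ± 0.774% at 30 d and 11 ± 0.783% at 45 d (SD, n = 3 each). Act79B took 47.3 ± 6.38%, 24.0 ± 3.26%, 20.0 ± 1.07% and 19.3 ± 0.767% at those ages. Act57B took 16.0 ± 3.90%, 51.1 ± 1.69%, 59.8 ± 0.687% and 62.4 ± 1.79%, so the actin with the largest share was Act79B in all 3 young libraries and Act57B in all 9 later ones. Act87E took 8.89 ± 2.34%, 11.7 ± 0.965%, 9.74 ± 0.388% and 7.31 ± 0.415%, and from 15 to 30 to 45 d its share fell without overlap. In replicate 3 of 3 d Act88F took 14.6%, against 31.2% and 37.4% in replicates 1 and 2. The widest 95% Wilson interval of an actin share was 3.72 percentage points, which covers counting error only. These shares describe the libraries and carry no test.

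The troponin C pair shifted later. TpnC4 made 68.2 ± 0.702% of the counts of TpnC4 and TpnC41C at 3 d, 65.2 ± 4.54% at 15 d, 36.8 ± 1.13% at 30 d and 31.0 ± 5.87% at 45 d (SD, n = 3 each). Replicate 3 of 3 d, at 67.9%, was like its group (69.0% and 67.8%). The libraries of 3 and 15 d lay between 60.3% and 69.3%, and those of 30 and 45 d between 24.5% and 37.5%, with no overlap. The genes differ in exon length, at 849 bases for TpnC4 and 1880 for TpnC41C in the whole-fly annotation. These lengths were used for muscles too, whose own annotation was not given. Per exon length TpnC4 made 82.6%, 80.5%, 56.3% and 49.6% of the pair at 3, 15, 30 and 45 d, so in old muscle the pair was close to even on that scale.

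**Figure D3:**
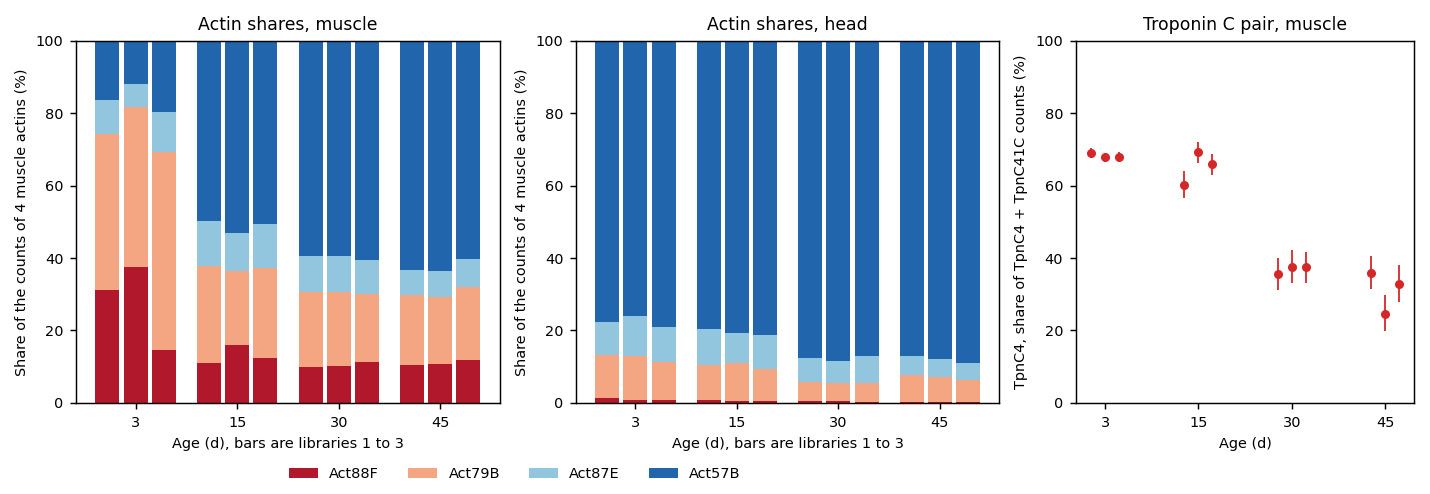
Left and middle, share of each gene in the summed counts of the 4 muscle actin genes, in percent, with a bar for each library in muscle and heads. Right, share of TpnC4 in the counts of TpnC4 and TpnC41C in each muscle library, with 95% Wilson intervals. In muscle the Act57B share lies between 11.9% and 19.7% at 3 d and above 49% at every later age, and the TpnC4 share drops between 15 and 30 d.

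Between genes, levels were compared as CPM per kb of exon length. The lengths are those of the whole-fly annotation, used for muscles too, whose own annotation was not given. At 3 d in muscle the order was Act79B (2288 ± 1010), TpnC4 (1635 ± 302), Act88F (1577 ± 1280), up (1348 ± 347), wupA (1111 ± 273), Tm2 (819.6 ± 311) and Act57B (687.4 ± 169), and each of the first 6 overlapped the next in the order. Below them and apart from Act57B came TpnC41C (345.3 ± 73.0), Act87E (328.5 ± 72.3) and Tm1 (207.3 ± 41.4), as CPM per kb. At 45 d Act57B led with 924.2 ± 62.6 CPM per kb, above all libraries of up (309.5 ± 7.0) and Act79B (303.8 ± 7.37), which overlapped each other. Next came wupA (260.7 ± 3.75), Act88F (175.3 ± 5.98), Tm2 (134.6 ± 12.1), Act87E (93.6 ± 1.81) and Tm1 (45.5 ± 1.11), each apart from its neighbours, and last TpnC4 (32.7 ± 9.41) and TpnC41C (32.2 ± 1.05), which overlapped. TpnC4 was second at 3 d and ninth at 45 d by these means. Without replicate 3 of 3 d, TpnC4 (1519 ± 317 CPM per kb, n = 2) came behind both Act79B (2636 ± 1150) and Act88F (2149 ± 1140) at 3 d, and TpnC41C (318.2 ± 79.2) came after Act87E (362.0 ± 61.0). Tm1 has the longest exons (9804 bases over 18 coding transcripts), which lowers its value per kb where only short transcripts are made.

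Across the 12 muscle libraries, the genes outside the list with the log2 CPM pattern most like Act88F were Mlc2 (Pearson r = 0.986), SmydA-7 (0.978) and Swim (0.974). For TpnC4 they were Scp1 (0.993), CG15412 (0.992) and CG15617 (0.991). For Act79B they were Gpdh1 (0.987), CG7203 (0.986) and Gapdh2 (0.985), and for Act87E Gpdh1 (0.997), Mlc1 (0.995) and Prm (0.994). For TpnC41C they were ATPsynC (0.997), ATPsyngamma (0.995) and Mdh2 (0.995). Act57B was most like Neurochondrin (0.954), CalpB (0.915) and trbl (0.875). Of these 18 entries, 7 stayed among the closest 3 of their member once replicate 3 of 3 d was left out, namely Mlc2 and SmydA-7 for Act88F, Scp1 and CG15617 for TpnC4, Gpdh1 for Act87E, and Neurochondrin and CalpB for Act57B, while the lists of Act79B and TpnC41C were replaced entirely. Without that library the genes listed for Act79B still had r of 0.983 to 0.985 and those for TpnC41C 0.993 to 0.996, so ranks changed while r hardly did. Among the members, Act88F and Act79B had r = 0.954 and Act88F and TpnC4 r = 0.805, whereas Act88F and Act57B had r = 0.103. The libraries share their ages and the gap between 3 d and the rest, so these values describe that common course and no test was made.

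In heads the thin filament genes were lower than in muscle at 3 and 45 d, and most of them fell with age too. The difference from muscle was least for Act57B at 3 d, and for Tm1 and Act57B at 45 d. At 15 d against 3 d all 9 members that could be tested fell, where 7.85% of the 9035 genes tested were called lower and 5.0% higher. At 30 d against 3 d 8 of 9 fell and 0 rose, against 16.6% of all genes lower and 14.7% higher, and at 45 d against 3 d 8 of 9 fell and 0 rose, against 18.2% lower and 17.5% higher. The median log2 change of the members at 45 d against 3 d was -0.83, beside 0.00797 over all genes tested. Library totals moved that all-gene median to 0.134, and Act57B then passed as higher (0.30, adjusted p = 0.0411). At 45 d against 15 d, 4.01% of all genes were called lower and 5.14% higher, and 1 member rose, Act57B, while 0 fell (1, Tm1, at an unadjusted p under 0.05, and 0 with DESeq2). In the comparisons with 3 d, 0 members were higher at an unadjusted p under 0.05 and 0 with DESeq2.

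Act88F was scarce in heads, with 12.8, 6.39 and 5.43 CPM at 3 d, 3.16, 2.31 and 3.23 CPM at 15 d, 2.76, 3.89 and 2.04 CPM at 30 d, and 1.99, 2.79 and 1.51 CPM at 45 d. Every later library lay below the 3 d libraries. Its log2 change at 45 d against 3 d was -1.90 ± 0.372 (SE, adjusted p = 0.000805), the lowest among the members in heads. TpnC4 gave 0 to 5 counts per head library and 21 counts in all 12, too few for a test. It had 3, 3, 6 and 9 counts at 3, 15, 30 and 45 d, so the flight-muscle troponin C was close to the lower limit of detection at every age.

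Act57B was the leading muscle actin of heads at every age, with 77.5 ± 1.5%, 80.5 ± 0.780%, 87.7 ± 0.799% and 87.9 ± 1.0% of the 4 actins' counts at 3, 15, 30 and 45 d (SD, n = 3 each). It had 759.5, 524.5 and 529.4 CPM at 3 d, 377.2, 403.6 and 417.8 CPM at 15 d, 585.2, 621.0 and 543.4 CPM at 30 d, and 624.4, 657.1 and 767.8 CPM at 45 d. The 15 d libraries were the lowest and did not overlap with any other age. It fell at 15 d against 3 d (log2 change -0.60 ± 0.122, adjusted p = 0.00443) and rose at 45 d against 15 d (0.77 ± 0.122, adjusted p = 0.000697). At 45 d against 3 d its change was 0.18 ± 0.121 (adjusted p = 0.278), and 0.38 (adjusted p = 0.0053) without replicate 1 of 3 d, the highest young library.

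**Figure D4:**
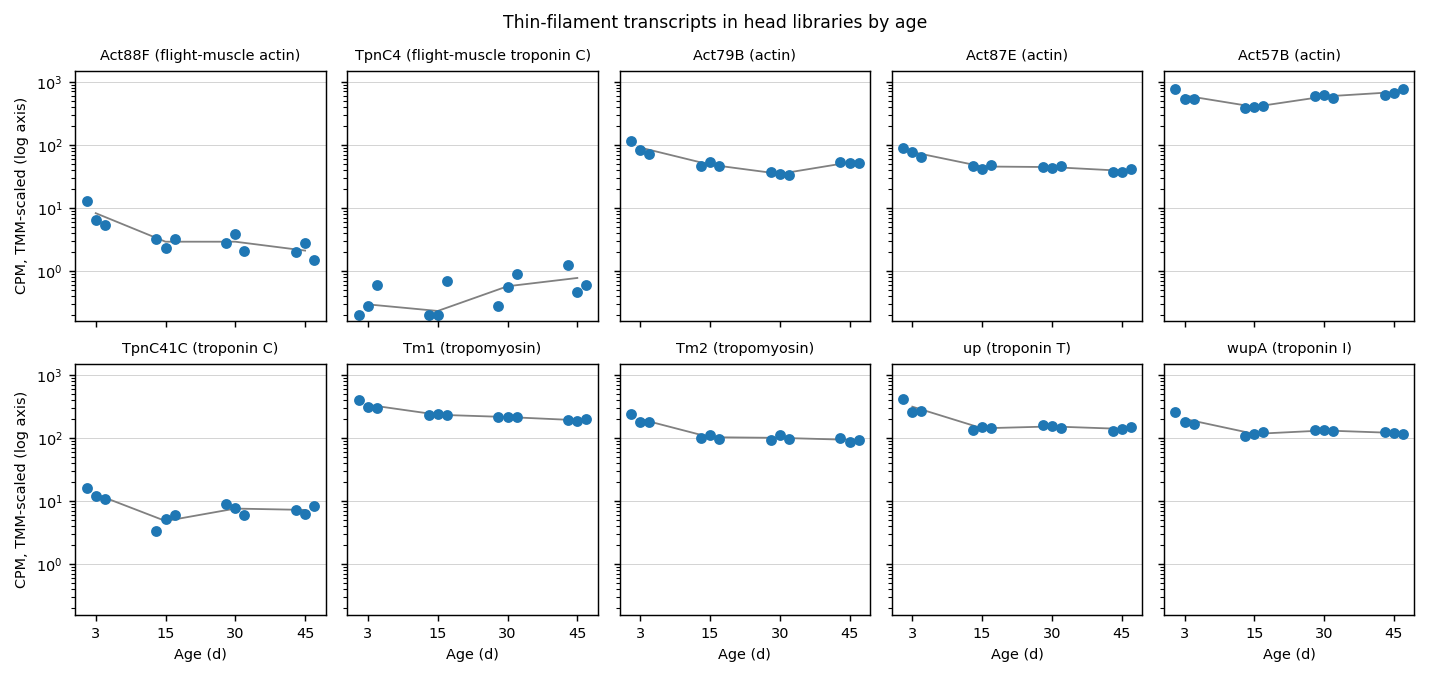
Level of each thin filament gene in the 12 head libraries by age, in CPM with TMM scaling on a log axis, with points as libraries and a line through the group means. Libraries without a count of TpnC4 are drawn at 0.2 CPM. Act57B is highest at every age and dips at 15 d, and TpnC4 stays below 1.5 CPM.

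Of the other actins in heads, Act79B had 116.8, 83.7 and 70.5 CPM at 3 d, 46.8, 52.9 and 45.5 CPM at 15 d, 36.7, 33.9 and 33.0 CPM at 30 d, and 53.8, 51.6 and 52.1 CPM at 45 d. The young libraries were the highest and the 30 d libraries the lowest, and the log2 change at 45 d against 3 d was -0.78 ± 0.134 (SE, adjusted p = 0.00029). Act87E averaged 38.7 ± 2.47 CPM at 45 d and 76.5 ± 12.2 CPM at 3 d (SD, n = 3 each), with a change of -0.98 ± 0.109 (adjusted p = 4.33e-06). The tropomyosins changed by -0.81 ± 0.0916 (Tm1) and -1.09 ± 0.111 (Tm2), and troponin T and I by -1.17 ± 0.137 (up) and -0.73 ± 0.117 (wupA), with adjusted p-values between 2.09e-06 and 0.000147 and no overlap between 45 and 3 d. TpnC41C had 7.23, 6.28 and 8.43 CPM at 45 d and 16.2, 11.95 and 10.9 CPM at 3 d, a change of -0.83 ± 0.222 (adjusted p = 0.00765). For all 9 tested members replicate 1 was the highest of the 3 d libraries. Without it 3 calls were lost: Act88F at 15 d (-0.99, adjusted p = 0.0941) and TpnC41C at 30 d (-0.56, adjusted p = 0.103) and 45 d (-0.65, adjusted p = 0.0514), each against 3 d. The call of TpnC41C at 30 d was also lost without replicate 2 or replicate 3 of 30 d (-0.74, adjusted p = 0.0503, and -0.61, adjusted p = 0.0818). Of 9 muscle marker genes 8 fell in heads at 45 d against 3 d, with a median of -0.96. Other markers moved as well: 6 of 7 neuronal genes and 5 of 7 photoreceptor genes fell, with medians of -0.62 and -0.55, and 4 of 4 hemocyte genes rose, with a median of 0.62. Neuronal genes summed to 3160 to 3360 CPM at 45 d and 4650 to 5800 CPM at 3 d, photoreceptor genes to 30300 to 53700 CPM at 45 d and 49300 to 57100 CPM at 3 d, and hemocyte genes to 1360 to 1380 CPM at 45 d and 858 to 942 CPM at 3 d. The part of these markers in the results was not tested.

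The 9 members with enough counts for a test in heads were all called higher in muscle than in heads at 3 d, where 29.0% of the 9538 genes in the joint fit were called higher and 30.1% lower, and all 9 at 45 d, where 24.3% were called higher and 24.5% lower. TpnC4 was called higher too, but it entered the joint fit only through its muscle counts, so it had to differ. At 3 d, with both tissues scaled together, Act88F averaged 2880 ± 2320 CPM in muscle and 7.40 ± 3.61 CPM in heads, a log2 difference of 8.62 ± 0.557 (SE, adjusted p = 1.2e-11), and 7.80 without replicate 2 of muscle at 3 d. Act57B differed least, at 1359 ± 328 CPM in muscle and 544.3 ± 120 CPM in heads, or 1.32 ± 0.166 (adjusted p = 4.78e-07), and 0.45 (adjusted p = 0.0258) with library totals as the scaling. Without replicate 3 of muscle at 3 d the differences were 9.08 ± 0.313 for Act88F and 1.47 ± 0.137 for Act57B. At 45 d the Act88F difference was 7.41 ± 0.579 and the Act57B difference 1.63 ± 0.167, close to that of Tm1 (1.61 ± 0.135). TpnC4 had 9145 counts over the 3 muscle libraries and 3 over the 3 head libraries at 3 d, and 325 and 9 counts at 45 d, so no fold between tissues is given for it at 3 d. With library totals as the scaling, these 9 members were still called higher in muscle at both ages, although the median difference of all genes moved to -0.887 at 3 d and -0.151 at 45 d.

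The change with age was steeper in muscle than in heads for 7 of the 9 members that could be tested in both tissues. The test of this difference, the tissue by age interaction at 45 d against 3 d, was negative and past the threshold for these 7, where 4.77% of all genes were called lower and 2.02% higher. The log2 differences were -2.07 ± 0.295 for Act79B, -0.77 ± 0.198 for Act87E, -1.32 ± 0.187 for Tm1, -1.46 ± 0.28 for Tm2, -0.89 ± 0.246 for up, -1.30 ± 0.227 for wupA and -2.53 ± 0.279 for TpnC41C, with adjusted p-values between 1.93e-06 and 0.0295. TpnC4 had a fitted value of -6.83 ± 1.06 (adjusted p = 0.000154). It entered the joint fit only through its muscle counts, and its 3 counts in heads at 3 d and 9 at 45 d lie near the lower limit of detection, so the value does not measure a change in heads and is not counted here. Act88F (-1.21 ± 0.828, adjusted p = 0.442) and Act57B (0.31 ± 0.231, adjusted p = 0.482) did not pass. For Act88F the estimate was -0.41 without replicate 2 of muscle at 3 d. The calls of Act87E and up are weak ones. That of Act87E was lost without any of 4 single libraries, at adjusted p-values of 0.0505 to 0.0728, and that of up without any of 8 single libraries, at 0.0563 to 0.0959. With library totals as the scaling, both were lost (-0.08, adjusted p = 0.774, and -0.21, adjusted p = 0.517), and the median interaction of all genes moved to 0.731. From 15 to 45 d 0 members passed in either direction with edgeR, where 0.136% of all genes were called lower and 0.0315% higher. At an unadjusted p under 0.05, 2 were lower (TpnC41C, and TpnC4, which is not counted here) and 0 higher. DESeq2's Wald test called only TpnC4, whose 3 counts in heads at 15 d and 9 at 45 d lie near the lower limit of detection.

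In whole flies of 3 d, TpnC4 rose in the transgene group against the mutant. With all libraries Act88F had the largest change there, a fall whose size depended on replicate 1 of the mutant. Act57B, up and wupA fell there by small amounts. Against WT the call of TpnC4 as higher was a weak one. The 3 comparisons share libraries, so their values stand side by side and are not independent. In the transgene group against the mutant 4 members fell and 1 rose, where 4.11% of the 10723 genes tested were called lower and 5.27% higher. In the transgene group against WT 6 fell and 1 rose, against 8.23% lower and 7.60% higher, and in the mutant against WT 2 fell and 0 rose, against 8.82% lower and 6.37% higher. At an unadjusted p under 0.05, 1 member (Act88F) was higher in the mutant than in WT, and DESeq2 called 0. The members' median log2 change was -0.21 for the transgene group against the mutant, -0.28 for the transgene group against WT and -0.07 for the mutant against WT, beside all-gene medians of -0.00835, -0.000192 and 0.0118 in that order.

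TpnC4 had 140.7, 104.2, 138.7 and 122.9 CPM in the transgene group, 63.2, 87.3, 27.5 and 90.6 CPM in the mutant, and 80.5, 111.2, 82.2 and 80.0 CPM in WT. All transgene libraries were above all mutant libraries, and they overlapped with WT through replicate 2 of each. Its log2 change was 0.90 ± 0.18 in the transgene group against the mutant (SE, adjusted p = 0.000813), 0.52 ± 0.172 against WT (adjusted p = 0.0364), and -0.38 ± 0.188 in the mutant against WT (adjusted p = 0.195), which passed without the filter on low counts (-0.38, adjusted p = 0.0152). The call against WT was lost without replicate 1, 3 or 4 of WT or of the transgene group, with adjusted p-values of 0.0622 to 0.104, with DESeq2 the adjusted p was 0.3, and the authors' deposited table gives 0.52 with an adjusted p of 0.316. For the transgene group against the mutant the authors' deposited table gives 0.92 with an adjusted p of 0.047. TpnC4 made 49.6 ± 4.88% of the troponin C pair's counts in the transgene group, 28.9 ± 8.48% in the mutant and 37.0 ± 2.41% in WT (SD, n = 4 each). The widest 95% Wilson interval of a TpnC4 share in muscle or whole flies was 10.1 percentage points.

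Act88F varied far more in the mutant than elsewhere. It had 53.9, 62.0, 62.9 and 67.1 CPM in the transgene group, 455.4, 96.3, 56.5 and 193.9 CPM in the mutant, and 103.8, 117.3, 120.6 and 114.7 CPM in WT. The mutant libraries overlapped both other groups, whose ranges were narrow and did not overlap each other. The log2 change was -1.67 ± 0.319 in the transgene group against the mutant (SE, adjusted p = 0.000455), -0.89 ± 0.328 against WT (adjusted p = 0.063), and 0.78 ± 0.303 in the mutant against WT (adjusted p = 0.0791). The change in the transgene group against WT passed as lower in a fit of those groups alone (-0.88, adjusted p = 3.58e-08), without the filter on low counts (-0.88, adjusted p = 7.95e-08) and with the replicate block (-0.89, adjusted p = 0.0355). The sizes depended on replicate 1 of the mutant: without it the change was -0.93 in the transgene group against the mutant and 0.04 in the mutant against WT. Without replicate 2 or replicate 3 of the mutant, Act88F passed as higher in the mutant than in WT (1.02, adjusted p = 0.0116, and 1.1, adjusted p = 0.00137). The authors' deposited table gives 0.81 for the mutant against WT with an adjusted p of 0.395, and -1.70 for the transgene group against the mutant with an adjusted p of 0.0226. As a share of the 4 muscle actins' counts, Act88F took 2.72 ± 0.132% in the transgene group, 7.13 ± 5.53% in the mutant and 3.76 ± 0.209% in WT (SD, n = 4 each).

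**Figure D5:**
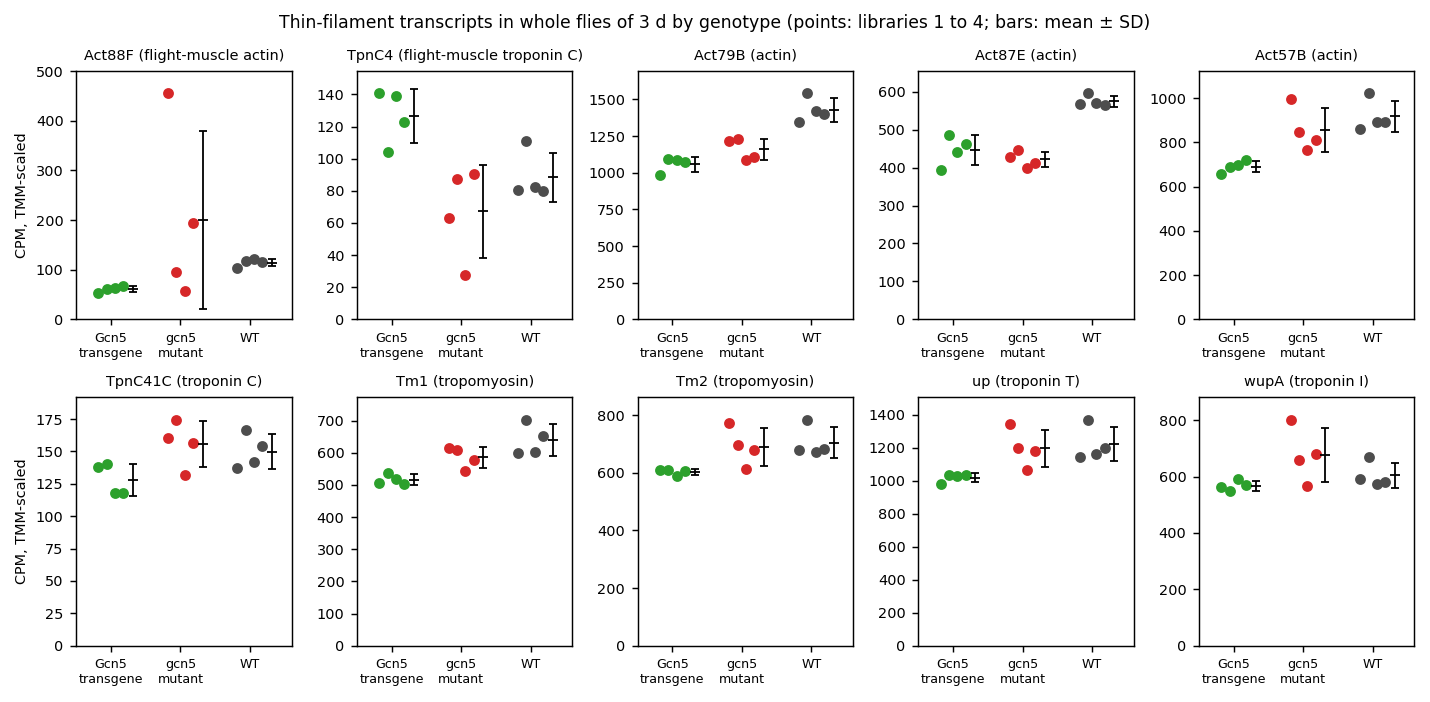
Level of each thin filament gene in whole flies of 3 d, in CPM with TMM scaling, with a point for each of the 4 libraries of the transgene group, the gcn5 mutant and WT, and bars for mean ± SD. TpnC4 is on average highest in the transgene group, Act88F spans 56.5 to 455.4 CPM in the mutant, and Act79B and Act87E are highest in WT.

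Act79B and Act87E, the actins of other muscles, were the members that fell in the mutant against WT. Act79B had 981.5, 1092, 1084 and 1075 CPM in the transgene group, 1214, 1231, 1088 and 1110 CPM in the mutant, and 1349, 1542, 1424 and 1403 CPM in WT. Every WT library lay above the others. Act79B changed by -0.30 ± 0.0668 in the mutant against WT (SE, adjusted p = 0.0015) and by -0.43 ± 0.0667 in the transgene group against WT (adjusted p = 1.54e-05). Act87E averaged 445.9 ± 39.2 CPM in the transgene group, 421.3 ± 20.8 CPM in the mutant and 574.2 ± 14.6 CPM in WT (SD, n = 4 each). Its changes against WT were -0.36 ± 0.0711 in the transgene group (adjusted p = 0.000389) and -0.45 ± 0.0719 in the mutant (adjusted p = 2.42e-05), and the transgene group was not distinguished from the mutant (0.08 ± 0.072, adjusted p = 0.552).

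Act57B was lowest in the transgene group, with 659.2, 688.7, 695.6 and 718.3 CPM, against 996.5, 847.1, 764.0 and 812.8 CPM in the mutant and 862.2, 1022, 890.0 and 894.2 CPM in WT. The transgene libraries were below all others. Act57B changed by -0.31 ± 0.076 against the mutant (SE, adjusted p = 0.00684), with an adjusted p of 0.0546 once replicate 1 of the mutant was left out, and by -0.41 ± 0.0758 against WT (adjusted p = 0.000204). Among the shared genes, Tm1 fell by 0.31 on the log2 scale and up by 0.26 in the transgene group against WT (adjusted p = 0.0021 and 0.0116). Tm2 passed at -0.22 ± 0.0726 (adjusted p = 0.0311) but not without replicate 2 of WT or any single transgene library (adjusted p = 0.0609 to 0.0897). Against the mutant, up (-0.23 ± 0.0722, adjusted p = 0.0386) and wupA (-0.25 ± 0.0807, adjusted p = 0.0442) passed narrowly, and both calls were lost without replicate 1, 2 or 4 of the mutant or any single transgene library (adjusted p = 0.0547 to 0.24). The number of members lower in the transgene group than in the mutant was therefore 4 with all libraries and 1 without replicate 1 of the mutant. TpnC41C averaged 128.2 ± 12.3 CPM in the transgene group, 155.8 ± 17.9 CPM in the mutant and 149.9 ± 13.2 CPM in WT (SD, n = 4 each), and passed in none of the comparisons, though its change against the mutant (-0.28 ± 0.0929, adjusted p = 0.0535) passed without replicate 3 of the mutant or replicate 2 of the transgene group (adjusted p = 0.0139 and 0.044). That change also passed with library totals, without the filter on low counts and with the replicate block (adjusted p = 0.0463, 0.0433 and 0.0365).

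Other tissues also differed between the whole-fly groups. The summed level of 9 muscle genes was 15200 to 16000 CPM in the transgene group, 14400 to 16300 CPM in the mutant and 16000 to 19200 CPM in WT. Digestive enzyme genes summed to 2500 to 4000 CPM in the transgene group, 1980 to 3760 CPM in the mutant and 6870 to 8720 CPM in WT. Accessory gland genes summed to 2500 to 2910 CPM in the transgene group, 3920 to 4840 CPM in the mutant and 1860 to 1980 CPM in WT. Whether such differences in tissue share move the thin filament values was not tested.

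Beyond the members, 18 genes of the thin filament and of actin handling were followed, of which 17 could be tested in muscle. At 45 d against 3 d 7 fell and 3 rose, with a median log2 change of 0.004, where 11.1% of all genes tested in muscle were called lower and 8.21% higher. Without replicate 3 of 3 d 7 fell and 5 rose, without replicate 3 of 45 d 6 fell and 2 rose, with library totals 3 fell and 10 rose, and in a fit of the 3 and 45 d libraries alone 3 fell and 0 rose. The genes that fell were the troponin C genes TpnC47D (-3.07 ± 0.412), TpnC25D (-1.39 ± 0.244) and TpnC73F (-0.75 ± 0.222), Fhos (-2.63 ± 0.529), a formin that organises sarcomeric actin, tmod (-1.91 ± 0.405), which caps the pointed end of the thin filament, sals (-0.92 ± 0.151), which lengthens it, and GstS1 (-1.28 ± 0.293). The genes that rose were the cytoplasmic actin Act5C (0.62 ± 0.144), the capping protein subunit cpb (0.74 ± 0.146) and flr (0.85 ± 0.242), a cofactor of actin disassembly. Act5C averaged 1174 ± 57.8 CPM at 45 d and 764.5 ± 37.7 CPM at 3 d (SD, n = 3 each), with no overlap. The call of TpnC73F was lost without replicate 1 of 3 d or replicate 1 or 3 of 45 d, and that of flr without any single 45 d library. With library totals as the scaling, GstS1, TpnC25D, sals and TpnC73F no longer passed, and TpnC73F had 0.14. In a fit of the 3 and 45 d libraries alone, Act5C, cpb, flr, Fhos, tmod, GstS1 and TpnC73F missed the threshold (adjusted p = 0.0596 to 0.191). In heads 4 of 16 tested fell and 8 rose at 45 d against 3 d, where 18.2% of all genes tested were called lower and 17.5% higher. With DESeq2 4 fell and 5 rose, as cpb, cpa and capt missed the threshold (adjusted p = 0.0797, 0.0558 and 0.109). Without replicate 1 of 45 d, or without replicate 2 of 45 d, 3 fell and 5 rose, these genes and Fhos being lost, and without replicate 1 of 3 d 3 fell and 6 rose. The calls included Act5C again as higher (0.57 ± 0.0781, adjusted p = 3.33e-05) and TpnC25D (-1.17 ± 0.107), tmod (-0.70 ± 0.0904) and sals (-0.44 ± 0.0965) as lower.

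In whole flies 2 of the 17 tested genes of that list fell and 1 rose in the transgene group against the mutant, where 4.11% of all genes were called lower and 5.27% higher. In the transgene group against WT 2 fell and 0 rose (0 higher also at an unadjusted p under 0.05 and with DESeq2), against 8.23% lower and 7.60% higher, and in the mutant against WT 3 fell and 3 rose, against 8.82% lower and 6.37% higher. The troponin C gene TpnC73F averaged 20.2 ± 4.54 CPM in the transgene group, 27.4 ± 4.49 CPM in the mutant and 37.5 ± 6.25 CPM in WT (SD, n = 4 each), and it fell in the transgene group against WT (-0.89 ± 0.168, adjusted p = 0.000262). The pointed-end cap tmod fell in the transgene group (-0.33 ± 0.0701, adjusted p = 0.00106) and in the mutant (-0.32 ± 0.071, adjusted p = 0.00145), each against WT. The formin Fhos, like Act88F, was most spread in the mutant, with 332.2 to 404.7 CPM in the transgene group, 368.0 to 927.8 CPM in the mutant and 390.0 to 457.4 CPM in WT, and it fell in the transgene group against the mutant (-0.81 ± 0.154, adjusted p = 0.000478). Its rise in the mutant against WT (0.54 ± 0.154, adjusted p = 0.0145) was lost without replicate 1 or replicate 4 of the mutant (0.29, adjusted p = 0.155, and 0.45, adjusted p = 0.065). The cytoplasmic actin Act5C fell in the mutant against WT (-0.35 ± 0.0684, adjusted p = 0.000376), and its rise in the transgene group against the mutant (0.24 ± 0.0683, adjusted p = 0.0223) was lost without replicate 4 of the mutant or replicate 1, 2 or 4 of the transgene group. In the mutant against WT, TpnC47D (-0.58 ± 0.193, adjusted p = 0.0374) passed only with nearly all libraries, being lost without any of 7 of the 8, and DAAM (0.33 ± 0.105, adjusted p = 0.03), a formin, was lost without replicate 1 of WT or replicate 2 or 3 of the mutant. The thin filament elongator sals rose in the mutant against WT (0.50 ± 0.0882, adjusted p = 9.42e-05) and fell in the transgene group against the mutant (-0.34 ± 0.0863, adjusted p = 0.00895), the second of which was lost without replicate 4 of the transgene group (adjusted p = 0.055).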

How the data were processed

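The deposited values are counts of reads per gene, and for whole flies also the authors' DESeq2 tables of log2 fold changes and adjusted p-values. Reads were single-end (100 nt) for heads and muscles and paired-end (150 nt) for whole flies. Whole-fly counts were made with featureCounts 2.0.1 over exons, without a strand option, on r6.36, per the file headers. The submitters' processing notes also name Trim Galore 0.6.6 and STAR 2.7.6a. The tool that counted heads and muscles is uncertain, since their files end in tallies of another counter's form, and for them the build, the annotation and any use of strand were not given in the sources used here. Reads not uniquely aligned made 4.99 to 6.92% of a head library and 5.39 to 36.6% of a muscle library (36.6% in replicate 3 of 45 d, at most 11.6% in the others), and such tallies were left out.

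From these counts, genes were kept with filterByExpr of edgeR (a count of 10, a total of 15), scaled with TMM and tested for differences by quasi-likelihood (edgeR 4.0.16, R 4.3.3). Unless another source is named, an adjusted p is edgeR's after Benjamini-Hochberg adjustment across every gene tested. Muscles, heads and whole flies were fitted separately with a mean per group, which shares the spread over groups, and a joint fit of heads and muscles gave the comparisons between tissues and the interaction. Standard errors were taken as the absolute log2 change over the root of F. The fits were tested on simulated counts. Whole flies were not compared with heads or muscles. Replicate numbers did not pair the libraries. Alternatives were other scalings, no filter, DESeq2 1.42.0, a replicate block, only the compared groups, and leaving out each library, and after seeing the data shares per exon length and levels per length without replicate 3 of muscle at 3 d were added. The members are all named. Other thin filament genes come from a list of 18 and are named where past the threshold in muscle at 45 d against 3 d or in whole flies, and the genes most alike are the 3 with the highest r. The members and lists were chosen with earlier results of these data known.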

Additional observations from a re-analysis of the deposited data

Results flagged for a closer look

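Of the 30 combinations of member and whole-fly genotype, 4 held a library far from the other 3 of its group, by Dixon's criterion for the gap to the nearest library. Chance gives such a gap in about 1 of 20 groups. In the transgene group these were replicate 1 for Act79B (981.5 CPM) and for up (977.2 CPM), both low. In WT they were replicate 2 for Tm2 (784.9 CPM) and for TpnC4 (111.2 CPM), both high.

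The change between 3 and 45 d differed between muscle and heads, by edgeR's test of the interaction, for 8 members, of which TpnC4 passed the filter on low counts only through its muscle libraries. The log2 differences, muscle less heads, were -2.071 for Act79B, -0.7686 for Act87E, -1.316 for Tm1, -1.457 for Tm2, -0.8932 for up, -1.297 for wupA, -2.532 for TpnC41C and -6.83 for TpnC4. The value of TpnC4 rests on 3 counts in heads at 3 d and 9 at 45 d and does not measure a change in heads.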

How the results depend on the processing

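With library totals in place of TMM factors, the sign turned for Act57B in muscle at 15 d against 3 d (0.454), in heads at 30 d against 3 d (0.03756) and in the interaction of 45 d against 15 d (0.01947), for TpnC73F in muscle at 45 d against 3 d (0.1411), for up in heads at 45 d against 15 d (0.02223), and for Tm2 (0.01369) and up (0.01528) in the mutant against WT. Act87E turned in the interaction of 45 d against 15 d with DESeq2 size factors (-0.02016), without a filter (-0.0133) and with DESeq2 (-0.01786). The number of members called higher became 1 with library totals in muscle at 30 and at 45 d, in heads at 45 d and in the interaction, each against 3 d. In muscle at 45 d against 15 d it was 1 with DESeq2, and 3 lower and 1 higher in a fit of those ages. In heads at 45 d against 15 d 1 was lower without a filter and in a fit of those ages. In the mutant against WT 1 was higher without a filter, and in the transgene group against WT 0 were higher with DESeq2. In the interaction of 45 d against 15 d DESeq2 called 1 lower, TpnC4, which passed the filter only through its muscle libraries. The cause was not tested.

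Leaving out single libraries, the members called higher ranged from 0 to 1 in muscle and in heads at 45 d against 3 d, in muscle at 45 d against 15 d and in the transgene group against WT, and from 0 to 2 in the mutant against WT. The members called lower ranged from 1 to 3 in muscle at 45 d against 15 d and from 1 to 6 in the transgene group against the mutant. Log2 changes that crossed 0 were those of Act57B at 30 d against 3 d in muscle (-0.04055 to 0.3168) and heads (-0.1374 to 0.1544), of Act88F (-0.05355 to 0.3585) and Tm1 (-0.04118 to 0.04875) in muscle and of up in heads (-0.0883 to 0.01485) at 45 d against 15 d, of Act57B (-0.1203 to 0.05485), Act87E (-0.03361 to 0.06909) and Act79B (-0.03092 to 0.08367) in the interaction of 45 d against 15 d, and of Tm2 (-0.08739 to 0.02677), up (-0.08719 to 0.03138) and TpnC41C (-0.0007093 to 0.1345) in the mutant against WT.

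The replicate block turned no sign of a member. It ended the call of wupA in the transgene group against the mutant (-0.245, adjusted p = 0.0528) and brought past the threshold TpnC41C there (-0.2787, adjusted p = 0.0365) and Act88F in the transgene group against WT (-0.8922, adjusted p = 0.0355). Numbers alike did not deviate together (correlations -0.123 to 0.0914 in muscle, -0.269 to 0.161 in heads and -0.0849 to 0.0247 in whole flies). Of 836 member changes under other settings 801 kept sign and call, as did 986 of 1066 with a library left out.

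For counts over all genes, lower and higher, library totals gave 234 and 4911 in muscle at 15 d (536 and 180 with TMM) and 305 and 5429 at 30 d (798 and 465), 457 and 785 in heads at 15 d (709 and 452) and 1085 and 2418 at 45 d (1648 and 1579), and 219 and 4324 in the interaction at 45 d (455 and 193), each against 3 d. For muscle over heads at 3 d they gave 6125 and 1087 (2871 and 2762), and in muscle at 45 d against 15 d 45 and 190 (68 and 82). Fits of only the compared ages gave 184 and 7, 326 and 70, and 441 and 148 in muscle at 15, 30 and 45 d against 3 d, and 755 and 732 at 45 d against 15 d, where DESeq2 gave 181 and 188. In the interaction of 45 d against 15 d DESeq2 gave 62 and 35 (13 and 3). The block gave 119 higher in muscle at 15 d against 3 d and 41 lower at 45 d against 15 d, and no filter gave 719 higher in heads at 15 d and 107 higher in the interaction at 45 d, each against 3 d.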
